A study of Mus musculus with 2 samples.

Results

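Heat shock proteins and their DNAJ partners are molecular chaperones, the proteins that help other proteins fold, hold unfolded ones and pass terminally damaged ones to degradation. The set described here holds every protein-coding gene of the table whose symbol begins with Hspa, Hspb, Hspd, Hspe or Hsph and a digit, with Hsp90, or with Dnaja, Dnajb or Dnajc and a digit, plus the heat shock factors Hsf1 and Hsf2. This gave 74 of 54532 listed genes, of which 27 were heat shock proteins, 45 were DNAJ proteins and 2 were heat shock factors. Gene counts were available for 2 tumours, 1 per group, both grown in C57bl/6 mice from Hepa1-6 cells, a line derived from a mouse liver cancer. The injected cells of one tumour stably carried an IRF8-overexpression-GFP-Puro lentivirus, and those of the other a vector control-GFP-Puro lentivirus. The cell lines were injected into the sides of the same mouse, so each tumour also holds cells of the host, whose mouse reads cannot be separated from those of the cancer cells. The promoter of the construct, the age and sex of the mice, the number of clones in each line and whether tumours were pooled are not given in the sources used here.

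IRF8 is a transcription factor of myeloid cells and interferon responses. Its gene, Irf8, went against the labels: its count was 4178 under the vector label and 2578 under the IRF8-overexpression label. In CPM, the count of a gene relative to the scaled total of its library, this was 209.5 against 146.8. The names IRF8-labelled and vector-labelled are used for this reason, and each direction below rests on those labels. Total counts were 20223649 for the vector-labelled and 17316607 for the IRF8-labelled library. The hepatoma origin was visible in both, as Afp, the fetal liver protein of hepatocellular carcinoma, stood at 2598 and 937 CPM and the hepatocyte factor Hnf4a at 148.2 and 154.1 CPM. With 1 library per group there was no replicate check, so no test was possible and each difference is between these 2 libraries. The intervals in parentheses are 95% counting intervals and cover counting error only. In bulk tumour RNA, fewer cells of a type and less RNA per cell cannot be told apart.

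Chaperones work in relays. HSP70 proteins grip exposed hydrophobic stretches of a client, DNAJ proteins (HSP40s) deliver clients and trigger ATP hydrolysis through their J domain, HSP110 proteins reset the cycle by exchanging nucleotide, and HSP90 finishes the maturation of kinases and steroid receptors. Small heat shock proteins hold unfolding proteins without ATP, and the chaperonin pair of HSP60 and HSP10 folds proteins inside mitochondria. Heat shock factor 1 switches on the inducible members by binding heat shock elements, inverted repeats of the unit nGAAn. The endoplasmic reticulum members answer instead to the unfolded protein response, which acts through the endoplasmic reticulum stress element. Tumour cells, hepatoma cells included, are known to carry high amounts of constitutive HSP90 and HSP70.

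Promoter windows from 250 bases before to 50 bases after the transcription start were found in the RefSeq table (GRCm38.p6) for 59 of the 74 members. Distances to a start refer to the RefSeq start. For 40 of the 59 members a RefSeq start lay within 100 bases of the deposited gene start. A three-unit heat shock element, spelled GAANNTTC extended by NNGAA or, on the other strand, TTCNNGAA extended by NNTTC, stood in windows of 4 members, Hspd1, Hspe1, Hsph1 and Dnajb6, and in those of 0.662% of the 27025 genes of the RefSeq table. The shorter form GAANNTTC or TTCNNGAA, which lies inside the longer one, stood in windows of 16 members and in those of 17% of all genes. An endoplasmic reticulum stress element, CCAAT and CCACG with 9 free bases between them, or on the other strand CGTGG and ATTGG, stood in windows of 3 members, Hspa5, Hsp90b1 and Dnajc3, and in those of 0.137% of all genes. A match is a description of letters and shows no binding.

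The window of Hspe1 (chr1:55087898-55088197, plus strand) is shown because Hspe1 and Hspd1 are read in opposite directions from the same short stretch. Capitals mark the letters that match the three-unit element, where 2 matches overlap and begin 89 and 84 bases before the start.
Hspe1: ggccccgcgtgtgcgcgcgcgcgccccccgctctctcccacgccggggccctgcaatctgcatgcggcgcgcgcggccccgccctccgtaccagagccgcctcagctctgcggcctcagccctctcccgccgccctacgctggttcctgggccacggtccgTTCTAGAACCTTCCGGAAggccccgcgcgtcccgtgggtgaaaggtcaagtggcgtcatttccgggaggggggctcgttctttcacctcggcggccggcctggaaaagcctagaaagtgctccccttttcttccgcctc
The window of Hspb1 (chr5:135887669-135887968, plus strand) is shown because this gene had the second largest ratio of the measured members. Capitals mark 2 short heat shock elements, 117 and 97 bases before the start.
Hspb1: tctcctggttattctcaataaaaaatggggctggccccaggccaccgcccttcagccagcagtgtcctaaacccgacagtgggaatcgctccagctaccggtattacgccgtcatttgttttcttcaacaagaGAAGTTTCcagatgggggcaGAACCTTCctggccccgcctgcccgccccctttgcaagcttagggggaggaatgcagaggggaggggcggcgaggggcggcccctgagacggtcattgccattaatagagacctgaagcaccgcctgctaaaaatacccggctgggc
The windows of Hspa1b (chr17:34959189-34959488, minus strand) and Hspa1a (chr17:34972107-34972406, minus strand) are set beside each other because these neighbouring genes of inducible HSP70 are near copies. The windows were identical at 296 of 300 positions, and capitals mark the short heat shock element 104 bases before either start.
Hspa1b: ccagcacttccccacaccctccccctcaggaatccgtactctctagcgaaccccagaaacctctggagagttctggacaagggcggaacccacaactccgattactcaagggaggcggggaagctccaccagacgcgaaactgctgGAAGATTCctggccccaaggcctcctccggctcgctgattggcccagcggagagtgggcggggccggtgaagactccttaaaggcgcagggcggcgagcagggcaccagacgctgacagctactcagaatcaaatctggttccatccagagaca
Hspa1a: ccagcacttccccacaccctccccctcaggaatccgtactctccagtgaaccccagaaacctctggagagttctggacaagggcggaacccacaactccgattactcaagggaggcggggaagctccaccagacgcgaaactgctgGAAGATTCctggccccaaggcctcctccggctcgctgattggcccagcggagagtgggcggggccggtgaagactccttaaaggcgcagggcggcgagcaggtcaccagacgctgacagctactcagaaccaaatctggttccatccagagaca
The windows of Hspa5 (chr2:34771840-34772139, plus strand) and Hsp90b1 (chr10:86705395-86705694, minus strand) show the stress element of the endoplasmic reticulum in capitals, once in Hspa5 at 65 bases before the start and at 2 sites in Hsp90b1, 212 and 107 bases before it. The RefSeq start of Hspa5 lies 120 bases after the deposited gene start, so its site falls inside the deposited gene span.
Hspa5: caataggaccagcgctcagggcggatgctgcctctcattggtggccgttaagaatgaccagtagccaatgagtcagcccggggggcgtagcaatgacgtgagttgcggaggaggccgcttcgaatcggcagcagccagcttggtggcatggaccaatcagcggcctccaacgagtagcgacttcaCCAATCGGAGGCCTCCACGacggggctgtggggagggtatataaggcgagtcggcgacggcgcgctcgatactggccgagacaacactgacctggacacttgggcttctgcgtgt
Hsp90b1: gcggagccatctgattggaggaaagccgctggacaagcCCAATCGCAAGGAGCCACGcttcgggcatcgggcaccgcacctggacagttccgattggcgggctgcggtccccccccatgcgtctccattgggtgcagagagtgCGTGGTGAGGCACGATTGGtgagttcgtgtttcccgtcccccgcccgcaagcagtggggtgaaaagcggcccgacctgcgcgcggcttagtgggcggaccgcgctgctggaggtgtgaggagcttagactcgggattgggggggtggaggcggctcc

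The abundant chaperones were slightly lower in the IRF8-labelled tumour, and a few members of low level, led by the small heat shock proteins Hspb7 and Hspb1, were at least 2-fold higher. Genes whose mean over both libraries reached 1 CPM are called measured, and these were 64 members among 14775 genes. A gene was counted as 2-fold or 1.5-fold apart when the log2 ratio reached that size and the counting interval excluded 0. By this rule 4 members were at least 2-fold higher (2.59% of all measured genes) and 0 were at least 2-fold lower (2.77%). At least 1.5-fold, 5 members were higher (6.94%) and 0 were lower (5.56%). The interval lay below 0 for 23 members, or 35.9%, against 25.8% of all measured genes, and above 0 for 9 members, or 14.1%, against 23.5%. Scaled by total counts alone, these were 20 below and 14 above. Counting intervals narrow as levels rise, and shares set beside all measured genes, here and below, are not matched for level. The median log2 ratio of the measured members was 0.02, beside -0.0012 for all measured genes. Of the 9 members above 0, Hspb7 passed the level of 1 CPM only through the IRF8-labelled library, since it had 0.602 CPM in the other. Hspb2, whose interval held 0, likewise had 0.902 CPM there.

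Together the 74 genes took 1.06% of all counts under the vector label and 0.977% under the IRF8 label. Their summed level was 10759.6 and 9635 CPM. Most of this came from few genes. The 18 members with a mean of at least 100 CPM, a limit chosen after the data were seen, held 9271 and 8173 CPM. Of these 18, 13 had an interval below 0, or 72.2%, against 47.3% of the 2353 genes of that level. Only Dnajc14 had one above 0 (5.56% of them against 26.9%), while Hspa8, Hspb8, Dnajc5 and Dnajc7 had intervals that held 0. Their median log2 ratio was -0.18, beside -0.05 for the 2353 genes. At 1 to 100 CPM, 10 of 46 members had intervals below 0, or 21.74%, against 21.79% of the 12422 genes of that level. Another 8 had intervals above 0 (17.39% against 22.85%). None of the 18 abundant members reached a named fold. Of these 18, 0 were at least 2-fold higher (0.17% of the 2353) or lower (0.722%), and 0 at least 1.5-fold higher (1.53%) or lower (2.55%). Hepatocyte and hepatoma markers were also lower, with 5 of 8 intervals below 0 (62.5%, against 25.8% of all measured genes) and 1 above (12.5%, against 23.5%). These markers had a summed level of 7216 and 3523 CPM, and their part in the chaperone values was not tested.

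**Figure D1:**
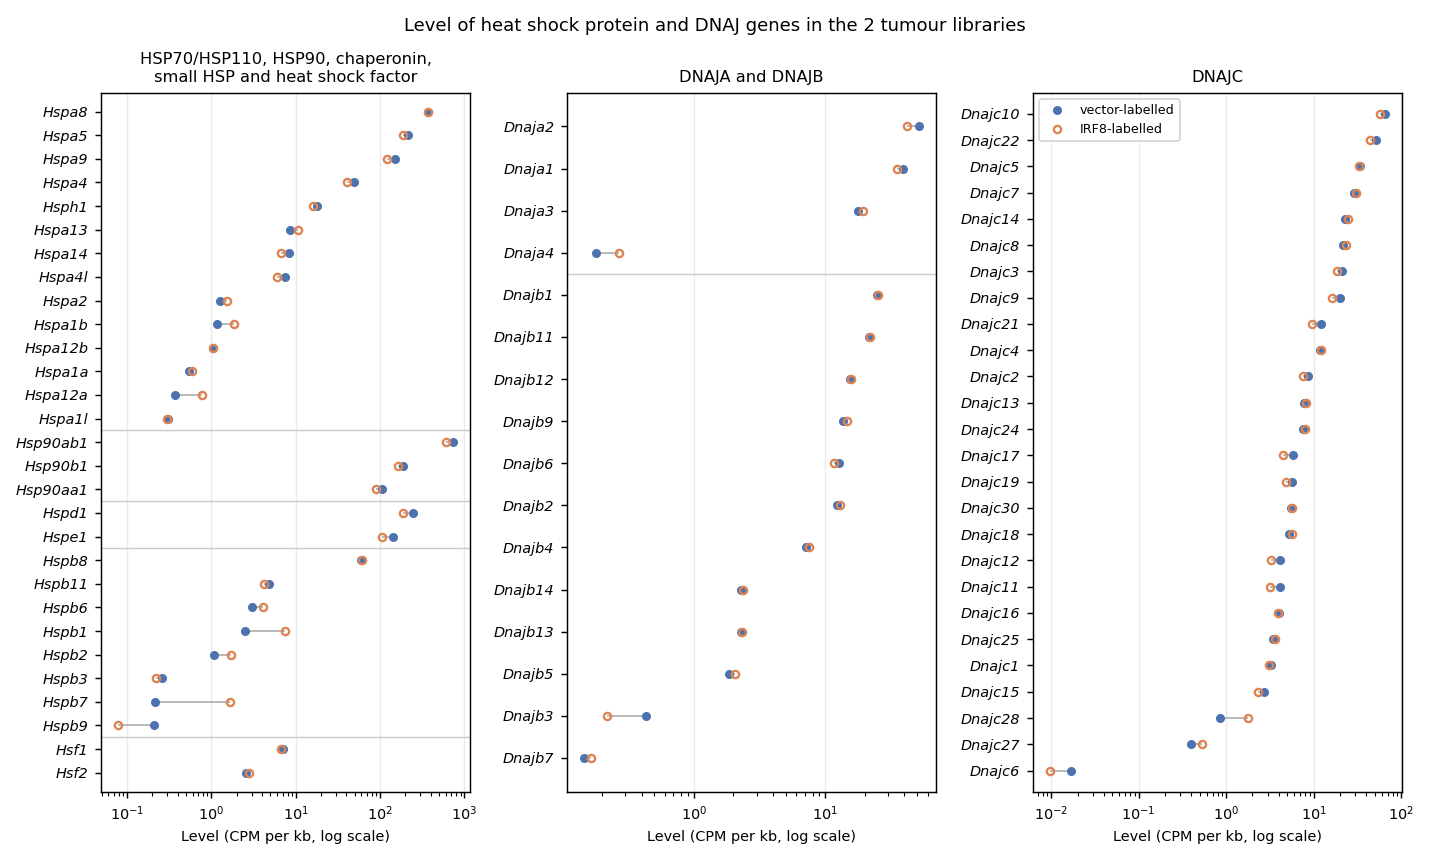
Level of each member with a count in both libraries (71 genes), in CPM per kilobase of deposited gene length on log axes, for the vector-labelled (filled) and the IRF8-labelled library (open), with 1 library per group. Hsp90ab1 and Hspa8 lead in both libraries, and Hspb7 and Hspb1 stand furthest apart between the libraries among the measured members.

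The 2 heat shock factors differed by less than counting error. Hsf1, the main activator of the heat shock response, had 992 and 845 counts in the vector-labelled and IRF8-labelled library, or 49.7 and 48.1 CPM. Its log2 ratio, IRF8-labelled over vector-labelled as everywhere below, was -0.05 (-0.18 to 0.09). Hsf2, which pairs with Hsf1 and is known from development and proteotoxic stress, had 492 and 471 counts, 24.7 and 26.8 CPM, and a log2 ratio of 0.12 (-0.06 to 0.31). The intervals therefore allow a level of Hsf1 from 0.882 to 1.06 times, and of Hsf2 from 0.956 to 1.24 times, that of the vector-labelled library.

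The 3 most abundant HSP70 genes serve different compartments, and the ones of the endoplasmic reticulum and the mitochondrion were lower. Hspa8 (chromosome 9, 40800984 to 40810087, plus strand), the constitutive cytosolic HSP70 called HSC70, was the second most abundant member per length, at 369.8 CPM per kb under the vector label and 371.6 under the IRF8 label. From 31721 and 28063 counts its log2 ratio was 0.0073 (-0.02 to 0.03), and it was -0.01 under DESeq2 size factors and 0.05 under total counts, so its sign depends on the scaling. Of its 100-base runs, 63.4% recur in other transcripts, among them those of the pseudogenes Gm15459, at 0 counts in both libraries, and Gm8355, at 55 and 65. Hspa5, which encodes BiP, the HSP70 of the endoplasmic reticulum (chromosome 2, 34771970 to 34777547, plus strand), had 17960 and 13935 counts. Its level was 900.4 and 793.7 CPM, 1.13-fold lower in the IRF8-labelled library (log2 ratio -0.18, -0.21 to -0.15). Hspa9, the mitochondrial HSP70 called mortalin, had 11817 and 8299 counts, 592 and 473 CPM, and was 1.25-fold lower (-0.33, -0.37 to -0.29).

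The nucleotide exchange partners of the HSP110 branch were lower as well. Hspa4 had 5386 and 3980 counts, 270.0 and 226.7 CPM, and a log2 ratio of -0.25 (-0.31 to -0.19). Hspa4l had 1740 and 1229 counts with a ratio of -0.32 (-0.42 to -0.21). Hsph1, the stress-inducible HSP105, had 2593 and 2036 counts with a ratio of -0.16 (-0.25 to -0.08). Hspa14, a ribosome-associated HSP70 relative, had 665 and 471 counts (-0.31, -0.49 to -0.14). It overlaps Gm45902, a protein-coding row on the same strand with 92 and 65 counts, so their reads may be split. Hspa13, an HSP70-like protein of the microsomes, stood on the other side, with 1175 and 1269 counts, 58.9 and 72.3 CPM, and a ratio of 0.29 (0.18 to 0.41).

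The stress-inducible HSP70 genes were near the bottom of the range. Hspa1a had 32 and 31 counts, 0.541 and 0.595 CPM per kb, with a log2 ratio of 0.13 (-0.62 to 0.90). Hspa1b (chromosome 17, 34956436 to 34959238, minus strand) had 65 and 92 counts, 1.16 and 1.87 CPM per kb, and was 1.61-fold higher (1.16 to 2.24). Per length, Hspa8 exceeded the sum of both by 217-fold under the vector label and 150.8-fold under the IRF8 label. Of all 100-base runs in the Hspa1b transcript, 49.9% also occur in the transcript of Hspa1a, and how reads that fit several genes were treated is unknown here, so the split between the pair is uncertain and their level may be too low. The pair's share of the counts of Hspa1a, Hspa1b and Hspa8 together, which needs no scaling, was 0.305% (Clopper-Pearson 0.247 to 0.372) and 0.436% (0.363 to 0.520). For Hspa1b alone beside Hspa8 it was 0.204% (0.158 to 0.261) and 0.327% (0.264 to 0.401). Both shares were higher under the IRF8 label. The intervals do not overlap for Hspa1b alone and overlap narrowly for the pair, from 0.363% to 0.372%. Overlap of separate intervals does not show that the pair's shares are equal.

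Among the other HSP70 relatives, Hspa12a (chromosome 19, 58795751 to 58860984, minus strand), a distant member with an atypical ATPase domain, had 42 and 78 counts. Its level of 2.11 and 4.44 CPM was 2.11-fold higher in the IRF8-labelled library (1.43 to 3.15). Its near relative Hspa12b, known from endothelial cells, had 76 and 68 counts and a log2 ratio of 0.02 (-0.47 to 0.51). Hspa2 and Hspa1l, known from the testis, had 67 and 71 counts and 15 and 13 counts; both intervals held 0, and Hspa1l was not measured. In all, 13 of 14 HSP70 and HSP110 genes were measured. Of these, 6 had intervals below 0 (46.2%, against 25.8% of all measured genes) and 3 above (23.1%, against 23.5%), so the share above equals that of all genes.

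The HSP90 genes were lower together. Hsp90ab1 (chromosome 17, 45567775 to 45573271, minus strand), the constitutive cytosolic HSP90 beta, was the most abundant member in both libraries, with 43998 and 32165 counts, or 735.5 and 611 CPM per kb. It was lower in the IRF8-labelled library, with a log2 ratio of -0.27 (-0.29 to -0.25). Hsp90aa1, the inducible HSP90 alpha, had 8189 and 6150 counts, 410.5 and 350.3 CPM, and a ratio of -0.23 (-0.28 to -0.18), with 47.5% of its 100-base runs shared with pseudogenes such as Gm12346, at 123 and 104 counts. Hsp90b1, known as GRP94 of the endoplasmic reticulum, had 14872 and 11696 counts, 745.6 and 666 CPM, and a ratio of -0.16 (-0.20 to -0.13). The alpha form made up 15.7% (15.4 to 16.0) of the cytosolic HSP90 counts under the vector label and 16.1% (15.7 to 16.4) under the IRF8 label, shares whose intervals overlap. The HSP90 genes summed to 3362 and 2848 CPM.

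The chaperonin pair had the smallest ratios of all measured members. Hspd1, which encodes HSP60 (chromosome 1, 55077835 to 55088243, minus strand), had 12858 and 8652 counts. Its level of 644.6 and 492.8 CPM was 1.31-fold lower in the IRF8-labelled library (log2 ratio -0.39, -0.43 to -0.35). Hspe1, which encodes its lid HSP10 (chromosome 1, 55088132 to 55091307, plus strand), had 4137 counts against 2707, or 207.4 and 154.2 CPM, 1.35-fold lower (-0.43, -0.50 to -0.36). The genes overlap head to head by 112 bases, and the window of Hspe1 with its three-unit heat shock element is printed above. A window of Hspd1, not printed, held this element too, and whether the site is the same was not examined. Hspe1 made up 24.3% (23.7 to 25.0) of the pair's counts under the vector label and 23.8% (23.1 to 24.6) under the IRF8 label, so the pair kept its proportion within counting error. Neither gene reached 1.5-fold. Of the 100-base runs of the Hspd1 transcript, 26.9% recur in other transcripts, mainly that of the pseudogene Hspd1-ps3, which had 321 and 156 counts of its own. For Hspe1 the share was 22.4%.

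**Figure D2:**
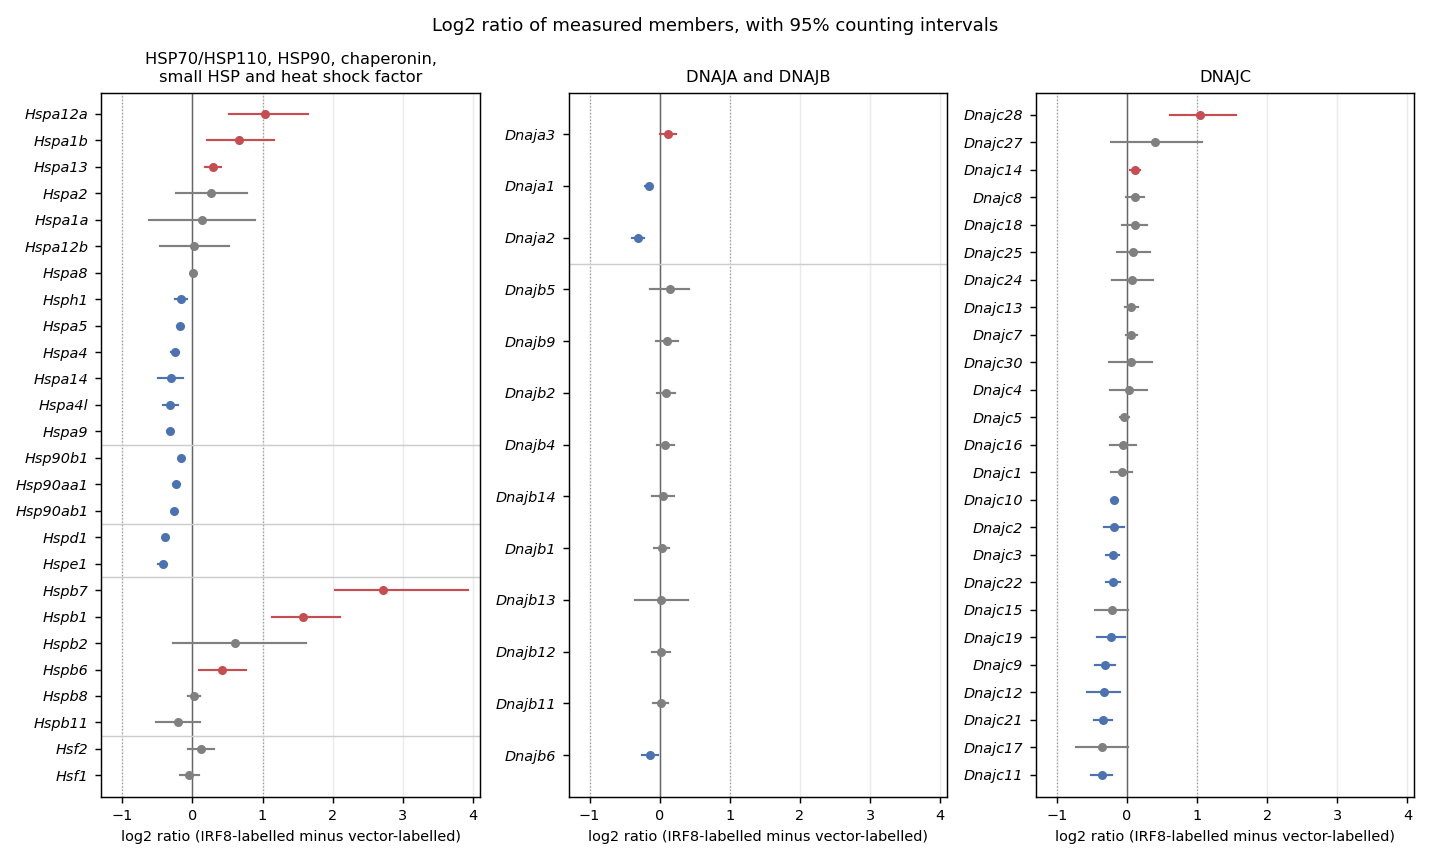
Log2 ratio of the 64 measured members, IRF8-labelled minus vector-labelled, with 95% counting intervals (bars) and dotted lines at 2-fold. Intervals are drawn in red above 0, in blue below 0 and in grey where they hold 0; Hspe1 and Hspd1 are lowest, and Hspb7 and Hspb1 are highest.

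The small heat shock proteins held the largest differences of the set. Hspb7 (chromosome 4, 141420779 to 141425311, plus strand), known from heart and skeletal muscle, had 12 and 80 counts. Its level went from 0.602 CPM under the vector label to 4.56 CPM under the IRF8 label, 7.57-fold higher (4.11 to 15.3). The log2 ratio, which unlike the fold uses a prior count of 2, was 2.72. Hspb1, which encodes the inducible HSP27 (HSP25 in mice; chromosome 5, 135887919 to 135889563, plus strand), had 51 and 137 counts. It stood at 2.56 and 7.80 CPM, 3.05-fold higher (2.20 to 4.30). Hspb6, abundant in muscle, had 139 and 165 counts and was 1.35-fold higher (1.07 to 1.70). Hspb2, another muscle member, had 18 and 25 counts, with an interval from 0.827-fold to 3.07-fold. Of its 100-base runs, 22.7% also belong to Cryab, which overlaps it on the other strand, and the kit named in the labels does not mark strand.

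Hspb8, the partner of Bag3 in clearing damaged proteins, was by far the most abundant small heat shock protein. It had 2338 and 2090 counts, 60.1 and 61.0 CPM per kb, and a log2 ratio of 0.02 (-0.06 to 0.11). Per length it exceeded Hspb1 by 24.2-fold under the vector label and 8.07-fold under the IRF8 label. Hspb1 took 2.13% (1.59 to 2.80) of the counts of Hspb1 and Hspb8 under the vector label and 6.15% (5.19 to 7.23) under the IRF8 label, and these intervals do not overlap. Hspb11, also known as IFT25 of the cilium, had 199 and 152 counts (-0.20, -0.52 to 0.11). Hspb3 and Hspb9 had at most 4 counts in either library.

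Markers of skeletal muscle and most measured markers of adipocytes, B and plasma cells and fibroblasts were higher beside these genes. Those of macrophages, T cells and endothelium were mostly not. Of 15 skeletal muscle markers, 14 were measured and had intervals above 0, but only 6 of them reached 1 CPM in the vector-labelled library, so the others passed the filter through the library where they are high and had to differ. The list summed to 41.2 CPM under the vector label and 439.4 CPM under the IRF8 label. In the vector-labelled library the defining markers were low, with 55 counts of skeletal actin (Acta1) and 7 of Myh4. Pvalb had 3 counts, no more than the floor used here, and Tnnc2 was listed at 0. Desmin (Des), also a gene of smooth muscle and pericytes, had 279 and 692 counts. Cryab, the muscle and lens small heat shock protein alpha B-crystallin, which the symbol rule leaves out, had 294 and 502 counts (log2 ratio 0.95, 0.75 to 1.17). Of 7 measured adipocyte markers, 6 had intervals above 0, and Lpl, at 6107 and 2692 counts, had one below, with a list sum of 339.7 and 278.5 CPM. Of these 7, 4 reached 1 CPM in the vector-labelled library, so the others passed the filter through the library where they are high. Among all measured genes, 23.5% had intervals above 0 and 25.8% below. Of 6 B and plasma cell markers, 3 were measured and above 0, with a list sum of 29.9 and 134.1 CPM. Only 2 of these 3 reached 1 CPM in the vector-labelled library, so the other passed the filter through the library where it is high. Of 4 fibroblast markers, 3 were above 0 and 1 below, with a sum of 3208 and 3608 CPM. Of 6 macrophage markers, 1 was above 0 and 3 below, with a sum of 789.4 and 770.5 CPM. Among 5 T cell markers 0 were above and 2 below, and among 3 endothelial markers 0 were above and 1 below. The part of these cell types in the values of Hspb7, Hspb1, Hspb6 and Hspa12a was not tested. Of the transcript of Hspb1, 42.7% of the 100-base runs recur in other transcripts, whose rows Hsp25-ps1 and Gm9817 had 0 counts in both libraries.

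**Figure D3:**
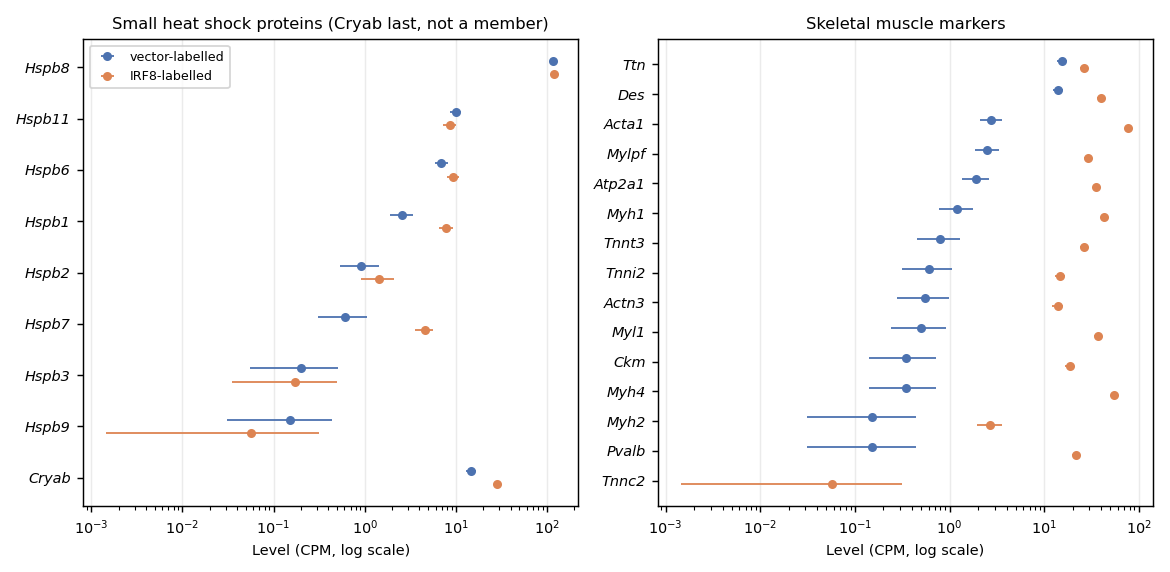
Levels in CPM on a log axis of the small heat shock proteins with Cryab (left) and of 15 skeletal muscle markers (right) in the vector-labelled (upper point of each pair) and IRF8-labelled library (lower point), with 95% exact Poisson intervals; a count of 0 is not drawn. Hspb7 and Hspb1 stand apart between the libraries, Hspb8 does not, and 14 of the 15 muscle markers are higher under the IRF8 label beyond counting error.

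Of 45 DNAJ genes, 38 were measured. Among these, 12 had intervals below 0 (31.6%, against 25.8% of all measured genes) and 3 above (7.89%, against 23.5%). In the DNAJA group, Dnaja2, a cytosolic partner of HSC70, had 3061 and 2171 counts, 153.5 and 123.7 CPM, and a log2 ratio of -0.31 (-0.39 to -0.23). Dnaja1 had 6767 and 5344 counts (-0.16, -0.21 to -0.10). It overlaps Smu1 on the other strand, which had 2379 and 2123 counts. Dnaja3, the mitochondrial DNAJ protein TID1, had 1394 and 1332 counts (0.12, 0.0090 to 0.23). It overlaps Vasn and Coro7, each with 902 or more counts, so part of its reads may belong to them. Dnaja4 was not measured, at 13 and 17 counts.

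DNAJB genes were close to equal. Dnajb1, the stress-inducible HSP40 that serves HSP70 in the cytosol, had 1577 and 1413 counts, 79.1 and 80.5 CPM, and a log2 ratio of 0.03 (-0.08 to 0.13). Dnajb11, the BiP partner ERdj3, had 1399 and 1241 counts (0.01, -0.10 to 0.12), and Dnajb12 of the endoplasmic reticulum membrane had 1029 and 920 counts (0.02, -0.11 to 0.15). Of 10 measured DNAJB genes, 9 had intervals that held 0, beside 7483 of the 14775 measured genes. The remaining DNAJB gene was Dnajb6, known to keep polyglutamine proteins from aggregating, with 1542 and 1233 counts (-0.14, -0.25 to -0.03). Its interval came close to 0, and 36.3% of its 100-base runs recur in other transcripts, among them those of the pseudogenes Gm2541, Gm6395 and Gm13414. Dnajb3 and Dnajb7, known from the testis, had at most 9 counts, and Dnajb8 had 0 in both libraries, which allows up to 0.150 and 0.171 CPM by 3 counts per library.

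The DNAJC group, the most varied, held 25 measured genes of 28, with 9 intervals below 0 (36%) and 2 above (8%), beside the 25.8% and 23.5% of all measured genes. Dnajc28 (chromosome 16, 91614254 to 91619026, minus strand) which is listed among the mitochondrial members, was the measured DNAJ gene furthest apart, with 60 and 111 counts. Its level of 3.01 and 6.32 CPM was 2.10-fold higher in the IRF8-labelled library (1.52 to 2.93). It lies within the span of an antisense row, Gm15964, with 20 and 23 counts. The most abundant per length was Dnajc10, the disulfide reductase ERdj5 of the endoplasmic reticulum, with 6506 and 5053 counts (-0.18, -0.23 to -0.13). Next came Dnajc22, with 1889 and 1443 counts (-0.20, -0.30 to -0.10), and Dnajc5, the cysteine string protein of secretory vesicles, with 4744 and 4066 counts (-0.04, -0.10 to 0.02).

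The lowest DNAJC ratios with an interval below 0 belonged to genes of different roles. Dnajc11, of the mitochondrial cristae complex, had 879 and 601 counts (-0.36, -0.52 to -0.21). Dnajc21, which acts in the maturation of the large ribosomal subunit, had 1163 and 806 counts (-0.34, -0.48 to -0.21), and Dnajc9, a histone chaperone, had 952 and 676 counts (-0.31, -0.45 to -0.17). Dnajc12, a partner of the aromatic amino acid hydroxylases, had 371 and 259 counts (-0.33, -0.57 to -0.10). Dnajc14 was the other DNAJC gene above 0, with 2973 and 2836 counts (0.12, 0.04 to 0.19), and 24.6% of its 100-base runs belong also to Ormdl2. The remaining measured DNAJC genes ran from -0.35 for Dnajc17, whose interval held 0, to 0.40 for Dnajc27, whose interval held 0 as well.

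The members can also be read by compartment. Shares below and above 0 stand beside 25.8% and 23.5% of all measured genes, a comparison not matched for level. Of 9 mitochondrial genes measured, 5 had intervals below 0 (55.6%) and 2 above (22.2%, near the share of all genes), with a median log2 ratio of -0.23 and a summed level of 1611 and 1280.4 CPM. They ran from Hspe1 at -0.43 to Dnajc28 at 1.05. Of 10 genes of the endoplasmic reticulum, 4 were below 0 (40%) and 1 above (10%), with a median of -0.03. Of 5 genes of the nucleus and ribosome, 3 were below 0 (60%) and 0 above, with a median of -0.31 and Dnajc8, a splicing-associated member, highest at 0.12 (-0.0086 to 0.24). The genes with the endoplasmic reticulum stress element lay close together: Hspa5 at -0.18, Hsp90b1 at -0.16 and Dnajc3, an inhibitor of the kinase PERK, at -0.20 (-0.29 to -0.11). Dnajc10, also of the endoplasmic reticulum but without this element in its window, was at -0.18 too, so the value is not particular to these 3 genes. The genes with the three-unit heat shock element were Hspe1 at -0.43, Hspd1 at -0.39, Hsph1 at -0.16 and Dnajb6 at -0.14. The shorter element, which these 4 genes also carry, gave no common direction: of 13 measured members with it, 6 had intervals below 0 (46.2%), 3 above (23.1%) and 4 that held 0, from Hspe1 to Hspb1 at 1.57.

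The textbook targets of heat shock factor 1 did not share a direction. Among the 11 members listed as inducible, 6 had intervals below 0 (54.5%, against 25.8% of all measured genes; Hspe1, Hspd1, Hsp90ab1, Hsp90aa1, Hsph1 and Dnaja1), 2 above (18.2%, against 23.5%; Hspb1 and Hspa1b), and 3 held 0 (Hspa8, Dnajb1 and Hspa1a), with a median of -0.16. This list includes Hsp90ab1 and Hspa8, which are described above as constitutive. Of 8 further targets that are no members, 4 were below 0 (50%) and 3 above (37.5%), beside the same 25.8% and 23.5%. Most of these further targets are also counted among the cochaperones below, so those tallies share genes. Serpinh1, the collagen chaperone HSP47, had 2638 and 3737 counts (0.69, 0.61 to 0.76), while the HSP90 partner Fkbp4 was at -0.30 (-0.36 to -0.25). Genes of handling and early stress were measured beside them, with 5 of 7 intervals above 0 (71.4%, against 23.5% of all measured genes) and 2 below (28.6%, against 25.8%). Junb had 7763 and 10282 counts (0.59, 0.55 to 0.63) and Fos 530 and 369 (-0.34, -0.53 to -0.14). Their part in the chaperone values was not tested.

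The cochaperones that serve HSP70 and HSP90 were mixed. Of 14 HSP90 cochaperones, 8 had intervals below 0 (57.1%, against 25.8% of all measured genes) and 3 above (21.4%, near the 23.5% of all), with a median of -0.15. Fkbp5, a glucocorticoid-induced immunophilin, was the only one at least 1.5-fold lower, with 2217 and 1214 counts (-0.68, -0.79 to -0.58). The phosphatase gene Ppp5c stood at -0.36 (-0.49 to -0.23) and Stip1, the HOP adaptor that passes clients from HSP70 to HSP90, at -0.29 (-0.34 to -0.23). Of 13 HSP70 cochaperones, 3 were below 0 (23.1%, near that of all) and 4 above (30.8%), with a median of 0.05. Within this list the mitochondrial exchange factors differed in direction: Grpel1 had 996 and 618 counts (-0.50, -0.65 to -0.36) and Grpel2 had 2389 and 2520 (0.26, 0.18 to 0.34). Bag3, the inducible partner of Hspb8, was at -0.0035 (-0.11 to 0.11).

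**Figure D4:**
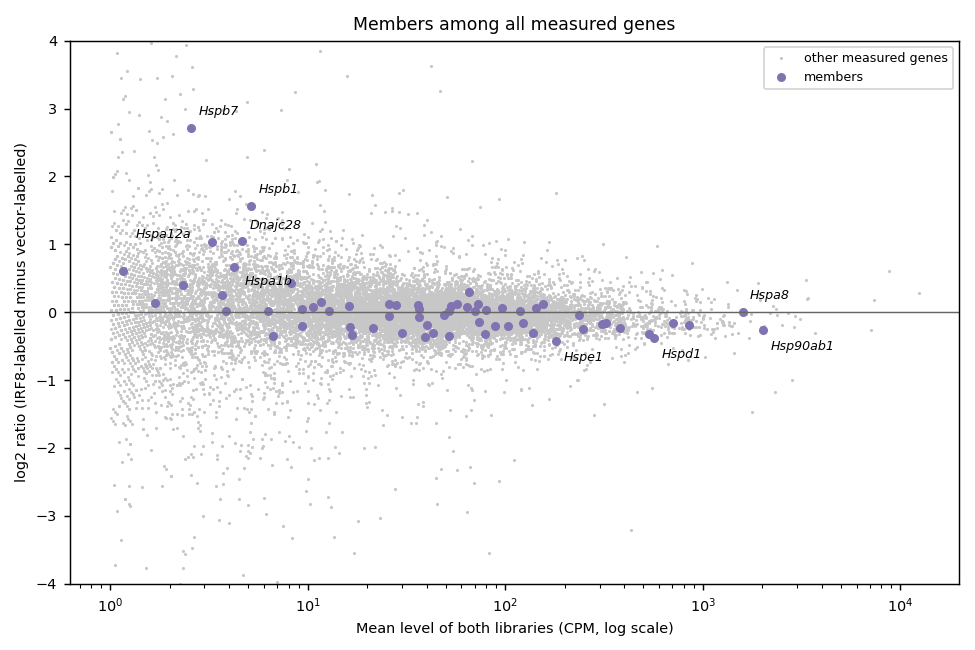
Log2 ratio, IRF8-labelled minus vector-labelled, against the mean level of both libraries (CPM, log axis) for all 14775 measured genes (grey) and the 64 measured members (purple); 57 genes lie outside the drawn range of 4 on either side. Of the 18 members above 100 CPM, 13 lie below 0 beyond counting error, and the members furthest from 0 have low levels.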

How the data were processed

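RNA-seq libraries of 2 tumours were compared, 1 per group. Per the labels' protocols, a NEBNext Ultra kit was used on 3 μg of RNA. The deposited values are raw counts per gene. HISAT2 2.0.5, featureCounts 1.5.0-p3 and the build mm10 appear in the submitters' processing notes. Annotation release, strand setting and treatment of multi-mapped reads are not given in the sources used here. The deposited gene length, in bases, scaled levels per kilobase. Gene coordinates (mm10) come from the deposited table; promoter coordinates come from RefSeq.

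The libraries were scaled with TMM (edgeR 4.0.16, R 4.3.3). Log2 ratios used a prior count of 2; folds used none. For intervals, the share of a gene's counts that came from the IRF8-labelled library got its 95% Clopper-Pearson bounds, which were turned into ratios. PCR copies are not marked, so intervals and the floor of 3 counts cover counting error only. Measured genes had a mean of at least 1 CPM. Scaling by DESeq2 1.42.0 and other settings were tried. The steps were tested on simulated data. Shared sequence was counted as runs of 100 bases of the longest protein-coding transcript of a member that recur, on either strand, in transcripts of other genes (GENCODE M21). Genes with a full account were the heat shock factors, the 3 most abundant per length of each family, the inducible list and each member at least 1.5-fold apart; up to 4 genes were named of other lists. The other genes named with values were chosen after their values were seen. Members and lists were chosen with earlier results of these data known.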

Additional observations from a re-analysis of the deposited data

How the results depend on the processing

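No paired analysis was possible because each group has 1 library, and for the same reason no replicate could be left out. With other scalings (DESeq2 size factors, total counts, TMM from protein-coding genes), a prior count of 0.5 or the deeper library thinned, the counts of members 2-fold and 1.5-fold apart were equal to the main ones, and the median over members stayed between -0.0054 and 0.06, close to 0 on either side. Under total counts, 20 members had intervals below 0 and 14 above; under DESeq2 size factors the numbers were 25 and 8. The calls of higher members rest on low counts: with a mean of at least 5 CPM, 1 member passed 2-fold and 1 passed 1.5-fold upward. With at least 100 CPM, chosen after the data were seen, these were 0 and 0 and the median was -0.18. Removing the muscle small heat shock proteins left 3 members at least 2-fold higher. Of 28 genes given in full, 0 with an interval that excluded 0 changed sign. Under total counts, 5 of the 28 had a ratio outside the interval given here: Hsp90ab1, Hspd1, Hspa5, Hsp90b1 and Hspa8. Under DESeq2 size factors this held for 1, Hsp90ab1. The narrow intervals of the most abundant members therefore leave out the choice of scaling. Hspa8, Dnajb11, Dnajb12 and Dnajc5, all close to 0, changed sign under at least 1 setting. At this depth Hspa1b, with 65 and 92 counts, had an interval from 1.16-fold to 2.24-fold.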

Other observations

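The chaperonin of the cytosol, TRiC, which folds actin and tubulin, had mostly lower values in the IRF8-labelled library. Of 14 genes of TRiC and of prefoldin, the complex that hands clients to it, 10 had intervals below 0 and 0 above. The shares of all measured genes, not matched for level, were 25.8% and 23.5%. The median log2 ratio of the 14 genes was -0.17. Cct5 had 14810 and 10118 counts in the vector-labelled and IRF8-labelled library (-0.37, -0.40 to -0.33), Cct3 had 5653 and 3943 (-0.34, -0.39 to -0.28), and Pfdn1 had 1585 and 1147 (-0.28, -0.39 to -0.17). The prefoldin genes Pfdn5 at 0.05 (-0.05 to 0.15) and Pfdn2 at 0.07 (-0.04 to 0.18) had intervals that held 0.

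Among mitochondrial proteases and chaperones outside the set, Lonp1, the matrix protease that removes oxidised proteins, had 4806 and 2955 counts (-0.52, -0.58 to -0.45) and the disaggregase gene Clpb had 870 and 615 (-0.32, -0.47 to -0.17). The unfoldase gene Clpx stood opposite, with 683 and 756 counts (0.33, 0.18 to 0.48). Trap1, the mitochondrial HSP90, was at -0.11 (-0.19 to -0.03).

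Of 15 pseudogene rows named after members or their older symbols, 9 had 0 counts in both libraries. Hspd1-ps3 had 321 and 156 counts, and Dnajc19-ps had 19 and 22.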
